A study of Bos indicus with 5 samples.

Results

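The genes described here encode the contractile and calcium machinery of smooth muscle. Their transcript abundance was compared in the ampulla, the wide oviduct section where fertilization takes place, of Nelore (Bos indicus) cows. They were taken by symbol from a list of 35 genes, of which 34 were matched. MYL9 was listed under 2 identifiers, so that 35 of the 24616 entries of the table were kept, and MYOCD was not analysed here. The libraries came from multiparous cows, each with its own animal number, 2 from cows bearing a large follicle and then a large corpus luteum (LF/LCL) and 3 from cows in which both were small (SF/SCL).

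All cows were first pre-synchronized with a prostaglandin F analog (sodium cloprostenol, 0.5 mg) and a GnRH agonist (buserelin acetate, 1 µg). On day -10 they received an intravaginal progesterone device (1 g) with 2 mg of estradiol benzoate. Prostaglandin was injected when the device was taken out and 6 h later, and a GnRH agonist on day 0 induced ovulation; no dose is stated for these later injections. The LF/LCL cows had an additional prostaglandin injection when the device was placed, and their device was removed 42 h before GnRH, against 30 h in SF/SCL. Tissue was taken on day 4 from the oviduct on the side of the corpus luteum and covered the whole thickness of the wall, so that mucosa, muscle and vessels were pooled in each library. The study picked the sequenced animals from the extremes of each group by follicle, luteal and hormone measures, and each library represents 1 animal. A further LF/LCL ampulla library was left out by the study for poor quality and a low number of reads.

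Smooth muscle contracts when calcium rises in the cell and the calcium-calmodulin complex activates myosin light chain kinase (MYLK), which phosphorylates the regulatory light chain (MYL9) of smooth muscle myosin (MYH11). Myosin phosphatase, held on myosin by PPP1R12A or PPP1R12B, reverses this, and it is inhibited through the kinases ROCK1 and ROCK2 and through PPP1R14A. In the oviduct the muscle layer, or myosalpinx, contracts in waves that move gametes and the early embryo, under ovarian steroid control.

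The libraries held from 13418278 to 19592174 reads assigned to genes, so that genes with few reads are measured less precisely. The epithelial markers fixed for the tissue were present in all libraries, and in SF/SCL the ciliated cell markers summed to more than in LF/LCL, as given with the other cell types below. The libraries carried no batch label. Of the 35 entries, 33 had a mean value over 5 and were tested. LDB3 (ENSBTAG00000018707), a Z-disc protein of striated muscle, had 0 reads in both LF/LCL libraries and 1, 2 and 2 in those of SF/SCL. CASQ2 (ENSBTAG00000011500), a calcium-binding protein of the sarcoplasmic reticulum, had 2 reads in LF/LCL replicate 1 and 0 in the other libraries. Both were too low for a fold change.

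Across the smooth muscle genes values were mostly greater in LF/LCL. The median log2 fold change of the 33 entries was 0.90, LF/LCL over SF/SCL, against 0.005 over the 15815 genes tested, and 28 of 33 had a higher mean in LF/LCL, as did 50.8% of all genes tested. Both LF/LCL libraries lay above all 3 SF/SCL libraries in 22 of 33 entries, where 15% of all genes tested did so. The opposite order was found in 1 entry, PRKG1, against 15.1% of all genes. The entries came from the same cows and many moved together by library, so counts of entries are not counts of independent observations. None of the 33 passed the test over all genes. With limma, 0 members had an adjusted p under 0.05 (0% of all genes tested). An unadjusted p under 0.05 was reached by 17, all of them higher in LF/LCL, where 5.64% of all genes were. Quasi-likelihood tests in edgeR, run on reads recovered from the values, likewise gave 0 members with an adjusted p under 0.05, and 20 with an unadjusted p under 0.05 that were higher in LF/LCL, against 5.96% of all genes. DESeq2 on the same reads called 8 members at an adjusted p under 0.05, all higher in LF/LCL, where it called 1.4% of all genes in that direction. In whole tissue, fewer smooth muscle cells and less RNA per cell cannot be told apart.

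**Figure D1:**
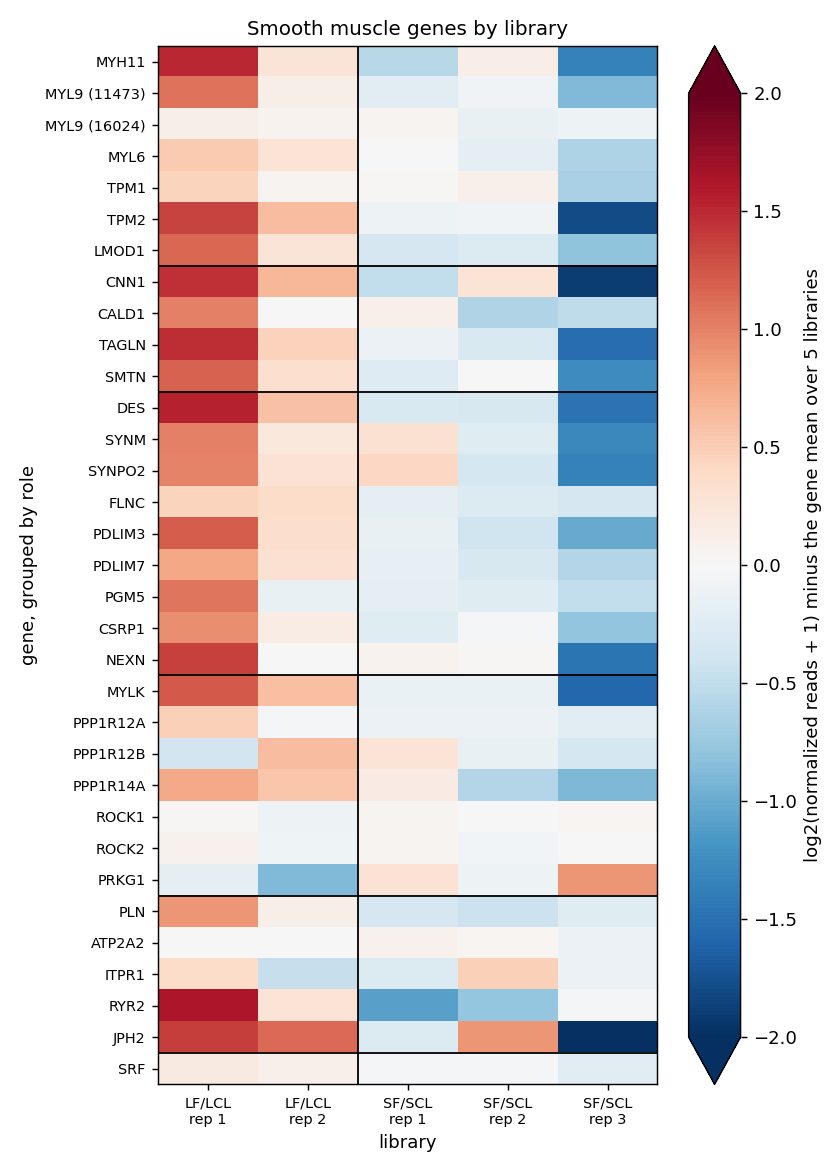
Transcript abundance of the 33 tested smooth muscle entries (rows, grouped by role with the lines between roles) in the 5 libraries (columns). Colour gives log2(normalized reads + 1) minus the mean of that gene over the libraries, and values beyond 2 in either direction take the end colours; the MYL9 entries carry the last digits of their identifiers. LF/LCL replicate 1 is the highest library in 28 of 33 rows and SF/SCL replicate 3 the lowest in 24.

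The filament proteins were the first role. MYH11 (ENSBTAG00000015988), the smooth muscle myosin heavy chain, had 29099 and 12199.8 normalized reads in replicates 1 and 2 of LF/LCL against 6959.7, 11185 and 4020.2 in replicates 1, 2 and 3 of SF/SCL. The LF/LCL libraries were both above the SF/SCL ones, but LF/LCL replicate 2 exceeded SF/SCL replicate 2 by little, and the log2 fold change was 1.47 ± 0.53 (SE), limma adjusted p = 0.395. TPM2 (ENSBTAG00000011424), a tropomyosin that lies along actin in muscle, had 16535 and 10015 normalized reads in LF/LCL against 6052, 6168 and 1881 in SF/SCL. Its groups were separate, the lowest library was SF/SCL replicate 3, and the log2 fold change was 1.64 ± 0.57 (SE). TPM1 (ENSBTAG00000005373), the other tropomyosin of the list and one used by many cell types, had 8452 and 6449 normalized reads in LF/LCL against 6325, 6671 and 3962 in SF/SCL, and its groups overlapped because SF/SCL replicate 2 was above LF/LCL replicate 2. LMOD1 (ENSBTAG00000021576), which nucleates actin filaments in smooth muscle, had 1440.2 and 772 normalized reads in LF/LCL against 510.5, 535 and 369 in SF/SCL. It was separate between groups, with a log2 fold change of 1.18 ± 0.30 (SE), a limma adjusted p of 0.302 and a DESeq2 adjusted p of 0.0116.

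The light chains were unequal. The MYL9 entry ENSBTAG00000011473 had 10622 and 5437 normalized reads in LF/LCL against 4282, 4762 and 2723 in SF/SCL, which made the log2 fold change 0.99 ± 0.36 (SE). The other MYL9 entry, ENSBTAG00000016024, had 8376 and 8111 normalized reads in LF/LCL against 8051, 6972 and 7156 in SF/SCL. Its libraries lay within a narrow band, with a log2 fold change of 0.16 ± 0.11 (SE), and whether both entries are the same gene was not tested. MYL6 (ENSBTAG00000010799), the essential light chain shared by smooth muscle and non-muscle myosins, had 16164 and 13577 normalized reads in LF/LCL against 11283, 9990.4 and 7395 in SF/SCL, which made the log2 fold change 0.65 ± 0.20 (SE), limma adjusted p = 0.336. Over the 7 filament entries the median log2 fold change was 0.99. In 6 of them both LF/LCL libraries lay above all SF/SCL libraries, TPM1 being the exception, against 15% of all genes tested.

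**Figure D2:**
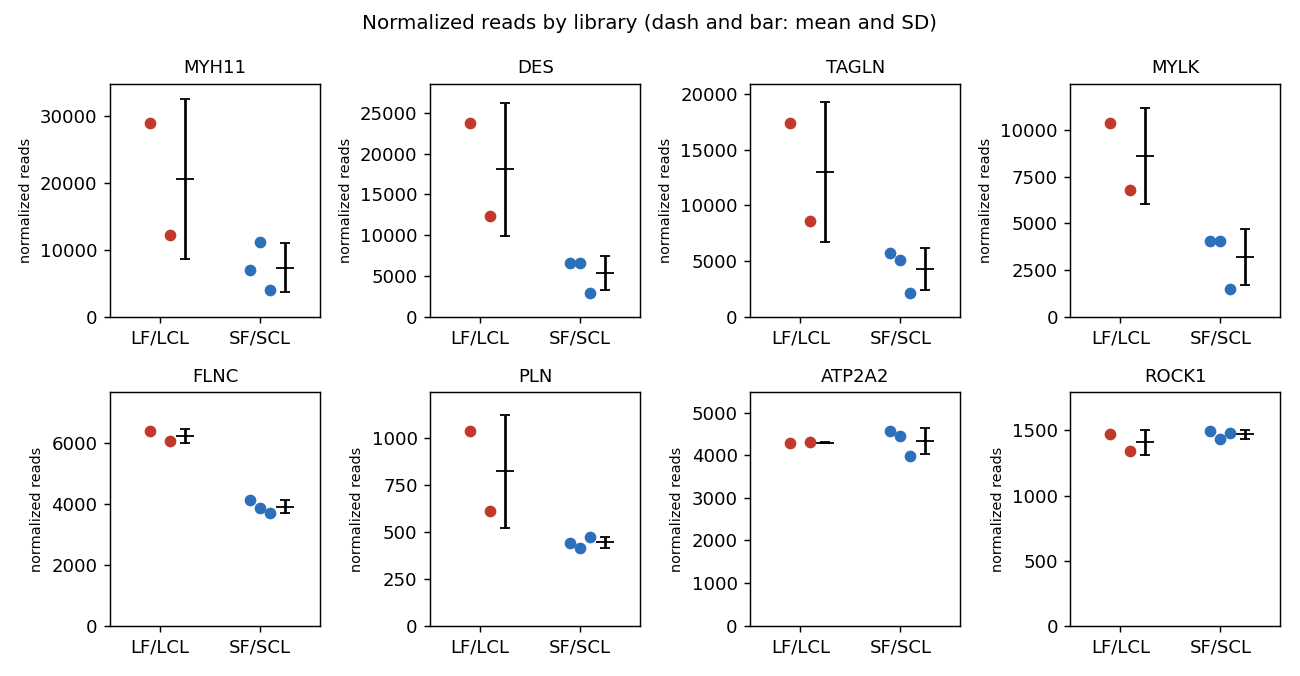
Normalized reads (vertical axes, from 0) of 8 smooth muscle genes in each library, with LF/LCL in red and SF/SCL in blue; the dash and bar give the mean and SD of 2 LF/LCL and 3 SF/SCL libraries. For MYH11 the lower LF/LCL library sits close to the highest SF/SCL library, FLNC is tight within each group, and ATP2A2 and ROCK1 overlap.

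Thin filament regulators bind actin and restrain or organise its contact with myosin. CNN1 (ENSBTAG00000011207), or calponin, had 6549 and 3757 normalized reads in replicates 1 and 2 of LF/LCL against 1683, 2883 and 636 in replicates 1, 2 and 3 of SF/SCL. The groups did not overlap, and the SF/SCL libraries ran from 636 to 2883, with a log2 fold change of 1.77 ± 0.64 (SE). TAGLN (ENSBTAG00000007196), or transgelin, an early marker of smooth muscle, had 17432 and 8579 normalized reads in LF/LCL against 5736, 5078 and 2179.6 in SF/SCL, which made the log2 fold change 1.62 ± 0.50 (SE), limma adjusted p = 0.353 and DESeq2 adjusted p = 0.019. SMTN (ENSBTAG00000003100), or smoothelin, found in contractile smooth muscle, had 1912 and 1063 normalized reads in LF/LCL against 704, 846 and 354 in SF/SCL and was again separate between groups. CALD1 (ENSBTAG00000013953), or caldesmon, is also made by non-muscle cells. It had 4780.2 and 2394 normalized reads in LF/LCL against 2545, 1569 and 1684 in SF/SCL, and SF/SCL replicate 1 was above LF/LCL replicate 2. The median log2 fold change of these 4 genes was 1.44.

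Dense bodies and intermediate filaments anchor the filaments and pass force through the cell. DES (ENSBTAG00000005353), or desmin, the muscle intermediate filament protein, had 18066 ± 8116 (SD, n = 2) normalized reads over the LF/LCL libraries against 5388 ± 2118 (SD, n = 3) over those of SF/SCL. By library it had 23805 and 12327 normalized reads in LF/LCL against 6659, 6562 and 2943 in SF/SCL. The lower LF/LCL library was well above the upper SF/SCL library, and the log2 fold change was 1.76 ± 0.45 (SE), with a limma adjusted p of 0.306 and a DESeq2 adjusted p of 0.00261. SYNM (ENSBTAG00000011752), or synemin, which forms filaments with desmin, had 2224 and 1279.6 normalized reads in LF/LCL against 1373, 939.6 and 451 in SF/SCL. SYNPO2 (ENSBTAG00000006434), an actin-bundling protein, had 2105 and 1296 normalized reads in LF/LCL against 1413, 829 and 415 in SF/SCL. In both genes SF/SCL replicate 1 was above LF/LCL replicate 2, so that the groups overlapped.

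FLNC (ENSBTAG00000006253), or filamin C, which crosslinks actin in muscle, had a small spread within each group. It had 6381 and 6067 normalized reads in LF/LCL against 4126, 3877 and 3710 in SF/SCL, or 6224 ± 222 (SD, n = 2) and 3904 ± 209 (SD, n = 3). The log2 fold change was 0.67 ± 0.10 (SE), limma adjusted p = 0.178 and DESeq2 adjusted p = 3.21e-06. This was the smallest limma adjusted p among the members, although its fold change was below their median. PDLIM3 (ENSBTAG00000017183) and PDLIM7 (ENSBTAG00000007343) carry domains that dock proteins on alpha-actinin and the cytoskeleton. PDLIM3 had 3396 and 1867 normalized reads in LF/LCL against 1326, 1113 and 733 in SF/SCL, which made the log2 fold change 1.29 ± 0.34 (SE). PDLIM7 had 1939 and 1409 normalized reads in LF/LCL against 1013, 907 and 758 in SF/SCL, which made the log2 fold change 0.90 ± 0.19 (SE). Both were separate between groups. The limma adjusted p was 0.307 for PDLIM3 and 0.246 for PDLIM7, and the DESeq2 adjusted p was 0.0104 and 0.0054.

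CSRP1 (ENSBTAG00000016057), a LIM protein of smooth muscle, had 8374 and 4877 normalized reads in LF/LCL against 3734, 4279 and 2565 in SF/SCL. PGM5 (ENSBTAG00000033190), or aciculin, which sits at adherens junctions of muscle, had 5728 and 2452 normalized reads in LF/LCL against 2389, 2299.6 and 1945 in SF/SCL. In PGM5 the separation of the groups rested on a narrow gap, since LF/LCL replicate 2 lay just above SF/SCL replicate 1, and without LF/LCL replicate 1 the log2 fold change went from 0.77 to 0.15. NEXN (ENSBTAG00000008921), an actin-binding protein of muscle, had 358 and 137 normalized reads in LF/LCL against 145, 139.9 and 49.4 in SF/SCL, where LF/LCL replicate 2 lay below 2 of the SF/SCL libraries. Of the 9 dense body and intermediate filament genes tested, all had a higher mean in LF/LCL, as did 50.8% of all genes tested. In 6 of the 9 both LF/LCL libraries lay above all SF/SCL libraries, against 15% of all genes. The log2 fold changes ran from 0.67 (FLNC) to 1.76 (DES).

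**Figure D3:**
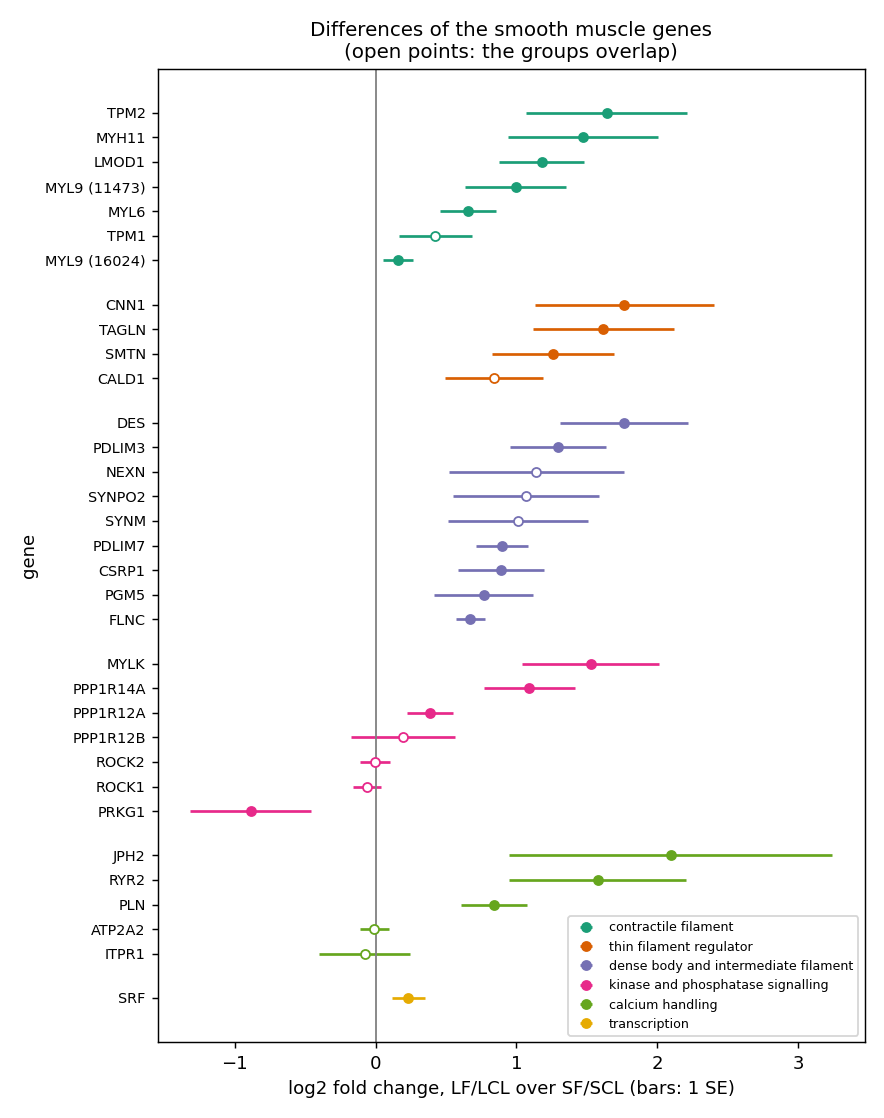
Log2 fold change, LF/LCL over SF/SCL, of each tested smooth muscle entry on the log2(normalized reads + 1) scale, with bars of 1 SE and colours for the roles; the MYL9 entries carry the last digits of their identifiers. Filled points are genes whose groups do not overlap and open points those that do. The filament, thin filament and dense body genes lie right of 0, and PRKG1 lies left of 0 at -0.89.

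The signalling genes around the light chain were mixed, with a median log2 fold change of 0.19 over 7 genes. MYLK (ENSBTAG00000014567), the light chain kinase, had 10400.1 and 6775 normalized reads in replicates 1 and 2 of LF/LCL against 4079, 4054 and 1495 in replicates 1, 2 and 3 of SF/SCL. Its groups were separate, with a log2 fold change of 1.53 ± 0.49 (SE), a limma adjusted p of 0.358 and a DESeq2 adjusted p of 0.0374. PPP1R14A (ENSBTAG00000023472), the phosphatase inhibitor of smooth muscle, had 503 and 438 normalized reads in LF/LCL against 335, 198 and 159.9 in SF/SCL, which made the log2 fold change 1.09 ± 0.32 (SE). These were the 2 genes of this role with an unadjusted p under 0.05, both higher in LF/LCL, against 5.64% of all genes tested.

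Among the phosphatase targeting subunits, PPP1R12A (ENSBTAG00000014609), which is made in most tissues, had 1937 and 1375 normalized reads in LF/LCL against 1279.9, 1288 and 1185 in SF/SCL. The groups were separate by a small margin, with a log2 fold change of 0.38 ± 0.16 (SE). PPP1R12B (ENSBTAG00000011772), best known from striated muscle, had 96.2 and 193 normalized reads in LF/LCL against 152, 113 and 97.7 in SF/SCL. Here the LF/LCL libraries were the lowest and the highest of all 5, and the log2 fold change was 0.19 ± 0.37 (SE). The kinases ROCK1 and ROCK2 varied little. ROCK1 (ENSBTAG00000008403) had 1475 and 1342 normalized reads in LF/LCL against 1494, 1432 and 1482 in SF/SCL, with a log2 fold change of -0.062 ± 0.10 (SE), and ROCK2 (ENSBTAG00000005847) had 1194 and 1055 normalized reads in LF/LCL against 1173, 1081 and 1129 in SF/SCL, with -0.006 ± 0.11 (SE). PRKG1 (ENSBTAG00000018404), the cyclic GMP-dependent kinase that relaxes smooth muscle, had 49.3 and 30.0 normalized reads in LF/LCL against 68.6, 52.1 and 104 in SF/SCL. Among the 33 tested entries it was the one whose SF/SCL libraries were all above the LF/LCL ones, with a log2 fold change of -0.89 ± 0.43 (SE) and a limma adjusted p of 0.494. Its values rested on few reads, 42 and 31 in LF/LCL against 66, 67 and 97 in SF/SCL.

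Calcium handling genes were also mixed. PLN (ENSBTAG00000012931), or phospholamban, which inhibits the calcium pump of the sarcoplasmic reticulum, had 1038 and 609.8 normalized reads in replicates 1 and 2 of LF/LCL against 443, 416 and 474 in replicates 1, 2 and 3 of SF/SCL. The SF/SCL libraries were close to each other and all were below LF/LCL, with a log2 fold change of 0.84 ± 0.23 (SE), a limma adjusted p of 0.312 and a DESeq2 adjusted p of 0.0451. SF/SCL replicate 3, the lowest library for most filament genes, was the highest SF/SCL library for PLN. ATP2A2 (ENSBTAG00000001398), the pump that PLN inhibits and one found in most cells, had 4297 and 4301 normalized reads in LF/LCL against 4565, 4446 and 3985 in SF/SCL. Its groups overlapped, with a log2 fold change of -0.0085 ± 0.10 (SE).

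The release channels differed in pattern. ITPR1 (ENSBTAG00000020455), opened by inositol trisphosphate, had 1302 and 727 normalized reads in LF/LCL against 828, 1406 and 930.5 in SF/SCL, and its highest and lowest libraries were SF/SCL replicate 2 and LF/LCL replicate 2. RYR2 (ENSBTAG00000022886), a ryanodine receptor, had 52.8 and 20.3 normalized reads in LF/LCL against 7.28, 9.33 and 16.1 in SF/SCL, from 45 and 21 reads in LF/LCL against 7, 12 and 15 in SF/SCL. The groups were separate and the log2 fold change was 1.58 ± 0.63 (SE), limma adjusted p = 0.421. JPH2 (ENSBTAG00000023002), a junctophilin that holds the reticulum to the cell membrane, had 143 and 121 normalized reads in LF/LCL against 44.7, 102 and 5.37 in SF/SCL. With limma it had the highest log2 fold change of the tested members, 2.09 ± 1.15 (SE), and also the highest SE. With DESeq2 the value was 1.38 and with edgeR 1.37, and 7 members were above it with either tool. For JPH2 SF/SCL replicate 3 had 5 reads and SF/SCL replicate 2 had 131. Without SF/SCL replicate 3 its log2 fold change was 0.95.

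For transcription, SRF (ENSBTAG00000012777), the factor through which myocardin and related coactivators switch on many contractile genes, had 884 and 831 normalized reads in LF/LCL against 762, 763 and 669.7 in SF/SCL. The groups were separate with a log2 fold change of 0.23 ± 0.12 (SE), lower than that of 25 other entries.

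Ratios between partner genes were read within each library, where the scaling between libraries has little effect. They were computed after adding 1 to each value, and 5 ratios were compared by an exact two-sided permutation test over the 10 ways of assigning the group labels, in which the smallest p that can be reached is 0.1. The PLN to ATP2A2 ratio was 0.242 and 0.142 in LF/LCL against 0.0972, 0.0937 and 0.119 in SF/SCL, a mean log2 difference of 0.85, LF/LCL minus SF/SCL, with an exact p of 0.1 (0.5 adjusted over the 5 ratios). The groups did not overlap, and the difference was 0.47 without LF/LCL replicate 1. The RYR2 to ITPR1 ratio was 0.0413 and 0.0293 in LF/LCL against 0.00999, 0.00734 and 0.0184 in SF/SCL, also without overlap, a log2 difference of 1.66 with an exact p of 0.2 (0.5 adjusted). The ratio of MYL9 (ENSBTAG00000011473) to MYL6 was 0.657 and 0.4 in LF/LCL against 0.38, 0.477 and 0.368 in SF/SCL, and SF/SCL replicate 2 was above LF/LCL replicate 2 (exact p of 0.4). With the other MYL9 entry the log2 difference was -0.49 in place of 0.34. The PPP1R12B to PPP1R12A ratio was 0.0501 and 0.141 in LF/LCL against 0.119, 0.0888 and 0.0832 in SF/SCL, where the LF/LCL libraries held both extremes (exact p of 0.9). The kinase and the myosin heavy chain kept no fixed ratio within a group. MYLK to MYH11 was 0.357 and 0.555 in LF/LCL against 0.586, 0.362 and 0.372 in SF/SCL, with an exact p of 1 and a log2 difference of 0.054.

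**Figure D4:**
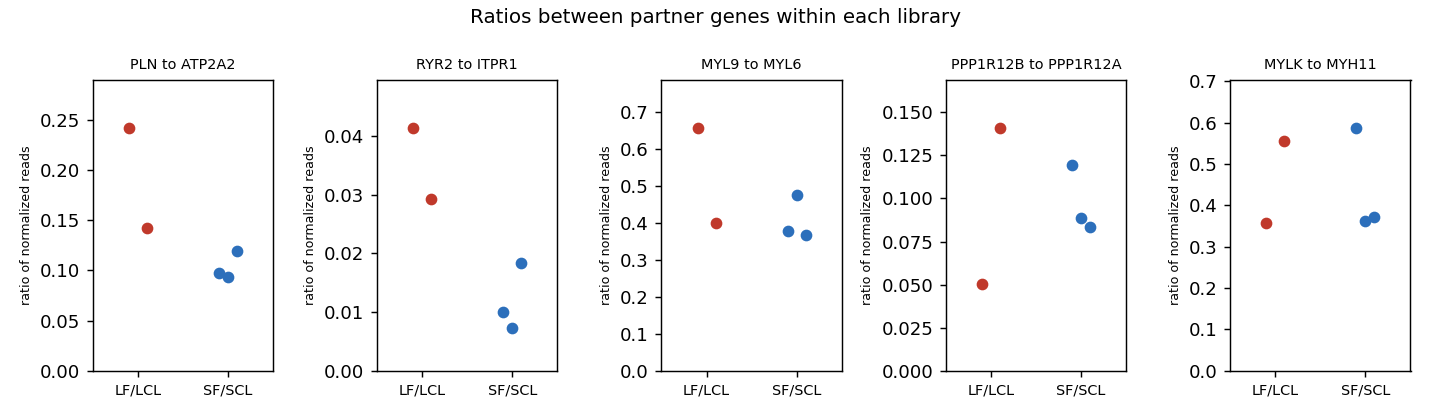
Ratio of normalized reads, after adding 1 to each value, between partner genes in each library (vertical axes, from 0), with LF/LCL in red and SF/SCL in blue. The PLN to ATP2A2 and RYR2 to ITPR1 ratios are above all SF/SCL libraries in both LF/LCL libraries, and the other 3 ratios overlap.

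Libraries of the same group were not alike for these genes. LF/LCL replicate 1 was above LF/LCL replicate 2 in 31 of 33 entries (50% of all genes tested), with a median ratio of 1.65. It was the highest library in 28 of 33 entries (21.9% of all genes). SF/SCL replicate 3 was the lowest library in 24 of 33 (24.4% of all genes), and its median ratio to the mean of the other two SF/SCL libraries was 0.695. As a level of the list, the median over the 33 entries of log2(normalized reads + 1) minus the gene mean was 0.99 and 0.26 in the LF/LCL libraries and -0.12, -0.13 and -0.64 in the SF/SCL libraries. On this scale LF/LCL replicate 2 was nearer to SF/SCL replicates 1 and 2 (gaps of 0.38 and 0.39) than to LF/LCL replicate 1 (0.73).

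The unadjusted counts moved most when LF/LCL replicate 1 was left out. Without it, 4 members had an unadjusted p under 0.05 with limma and were higher in LF/LCL, against 3.92% of all genes, and the median log2 fold change was 0.62 with 28 of 33 higher in LF/LCL. The 4 were LMOD1, FLNC, PDLIM7 and PLN. Without LF/LCL replicate 2 there were 21 (4.81% of all genes) and the median was 1.34. Leaving out SF/SCL replicates 1, 2 and 3 in turn gave 15 (5.21%), 17 (5.15%) and 14 (4.46%), with medians of 1.06, 1.02 and 0.68. Single genes moved too. Of the 28 entries higher in LF/LCL, 14 had a log2 fold change smaller by over 1.5 times without LF/LCL replicate 1. Among those with separate groups, MYH11 went to 0.85, MYL9 (ENSBTAG00000011473) to 0.51, LMOD1 to 0.73, SMTN to 0.83, PDLIM3 to 0.86, CSRP1 to 0.50, PPP1R12A to 0.14, PLN to 0.46 and RYR2 to 0.91, besides PGM5. The overlapping TPM1, CALD1, SYNM and NEXN went to 0.23, 0.34, 0.62 and 0.45. Without SF/SCL replicate 3 there were 8 such entries, among them TPM2 at 1.07 and CNN1 at 1.17 besides JPH2, and the others, TPM1, SYNM, SYNPO2, NEXN and PPP1R12B, had overlapping groups. Where 1 LF/LCL library was left, it was assumed to vary like the SF/SCL libraries.

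Other genes of smooth muscle, outside the list, were read as a companion set, of which 60 of 66 symbols were matched and 60 entries tested. Their median log2 fold change was 0.22. Of the 60, 13 were higher and 4 lower in LF/LCL with an unadjusted p under 0.05, where 11.5% of all genes had one in either direction, and 0 had an adjusted p under 0.05 with limma. ACTA2, the smooth muscle actin, had 28142 and 15733 normalized reads in LF/LCL against 10149.5, 9629.8 and 2952 in SF/SCL, which made the log2 fold change 1.67 ± 0.59 (SE). It ordered the libraries as TPM2 did at both ends. Only uniquely mapped reads were counted, so reads shared by ACTA2 and near-identical actins were left out, and its count is uncertain. KCNMB1, the beta subunit of the calcium-activated potassium channel, had 691 and 323 normalized reads in LF/LCL against 169, 403 and 136 in SF/SCL and overlapped between groups. CACNA1C, the pore of the L-type calcium channel, had 464 and 213 normalized reads in LF/LCL against 169, 192 and 143 in SF/SCL. Its log2 fold change was 0.91 ± 0.35 (SE). CACNB2, a beta subunit of such channels, had 159 and 145 normalized reads in LF/LCL against 288, 245 and 430.3 in SF/SCL. Its log2 fold change was -1.03 ± 0.27 (SE), limma adjusted p = 0.302 and DESeq2 adjusted p = 0.0374. CAV1, or caveolin, had a log2 fold change of 1.18 ± 0.26 (SE), limma adjusted p = 0.251 and DESeq2 adjusted p = 0.00286. VCL, or vinculin, had 0.50 ± 0.13 (SE), ACTN1, an alpha-actinin, 0.47 ± 0.13 (SE), MYOM1, a myomesin, 1.35 ± 0.38 (SE), and TPM3, a tropomyosin, -0.46 ± 0.13 (SE).

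Myosin heavy chains of non-muscle cells showed smaller differences than MYH11. MYH9 had a log2 fold change of 0.24 ± 0.13 (SE), MYH10 of -0.35 ± 0.22 (SE) and MYH14 of 0.41 ± 0.14 (SE). The difference between MYH11 and these genes was not tested. In the striated muscle list 12 entries were tested, with a median log2 fold change of 0.80, and 4 had an unadjusted p under 0.05, all higher in LF/LCL, against 5.64% of all genes. The list summed to 3043 to 5038 normalized reads in LF/LCL against 581 to 1812 in SF/SCL, and MYL1 and MYL2, light chains of striated muscle, were at 0 in all libraries. MYH7, the slow and cardiac myosin heavy chain, was listed under 2 identifiers. The study names ENSBTAG00000009703 as an uncharacterized protein apart from MYH7, and whether both entries are the same gene was not tested. ENSBTAG00000009703 had 292 and 279.7 normalized reads in LF/LCL against 86.3, 87.0 and 67.6 in SF/SCL, which made the log2 fold change 1.83 ± 0.23 (SE), limma adjusted p = 0.178 and DESeq2 adjusted p = 2.48e-09. ENSBTAG00000040053 had 393 and 448 normalized reads in LF/LCL against 50.9, 109 and 75.1 in SF/SCL, which made the log2 fold change 2.47 ± 0.34 (SE), limma adjusted p = 0.178 and DESeq2 adjusted p = 4.32e-08. In both entries the LF/LCL libraries were alike and all SF/SCL libraries were lower. The most abundant gene of the list was ACTA1, an actin near-identical to ACTA2, with 4146 and 2135 normalized reads in LF/LCL against 1277, 1389.6 and 289.8 in SF/SCL.

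Markers of other cells were measured beside these genes, and their part in the result was not tested. The ciliated markers had a higher mean in LF/LCL in 0 of 15 genes, with a median log2 fold change of -0.36, and 11 were lower with an unadjusted p under 0.05, against 5.86% of all genes. They summed to 75491 to 94426 normalized reads in LF/LCL against 106241 to 111355 in SF/SCL. The pan-epithelial markers summed to 32895 to 34928 normalized reads in LF/LCL against 30520.2 to 32846 in SF/SCL, with 3 of 7 higher in LF/LCL. The secretory markers summed to 143616 to 154454 normalized reads in LF/LCL against 143422 to 166180 in SF/SCL, with 3 of 6 higher. Most of the secretory sum was OVGP1, with 142113 and 117179 normalized reads in LF/LCL against 122187, 147247 and 137422 in SF/SCL. Of the 6, 3 were higher with an unadjusted p under 0.05 (5.64% of all genes) and 1 was lower (5.86%). For pericyte and vascular wall markers 7 of 10 were higher in LF/LCL, with sums of 4168 to 7971 normalized reads in LF/LCL against 2972 to 5622 in SF/SCL. Stromal fibroblast markers were higher in 9 of 11, with 35329 to 80994 normalized reads in LF/LCL against 22838 to 44749 in SF/SCL. Endothelial markers were higher in 7 of 10, with 5213 to 8321 normalized reads in LF/LCL against 6158 to 8989 in SF/SCL. KDR, the most abundant endothelial marker, was lower in LF/LCL without overlap, with a log2 fold change of -0.75 ± 0.16 (SE). It was the 1 endothelial marker with an unadjusted p under 0.05 (limma), where 5.86% of all genes were lower with one. None of these markers was at 0 in all libraries.

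The stromal fibroblast and the pericyte and vascular wall lists ordered the libraries differently from the muscle genes. The level of the stromal fibroblast list was 1.04 and -0.019 in the LF/LCL libraries and 0.07, -0.998 and 0.24 in the SF/SCL libraries, and that of the pericyte and vascular wall list was 0.89 and -0.34 in the LF/LCL libraries and 0.064, -0.65 and 0.26 in the SF/SCL libraries. LF/LCL replicate 1 was the highest library in both, as in the muscle genes, but SF/SCL replicate 3 came next and SF/SCL replicate 2 was the lowest. The proliferation list had LF/LCL replicates 1 and 2 highest and SF/SCL replicate 3 lowest, as the muscle genes did. Its level was 0.74 and 0.25 in the LF/LCL libraries and -0.31, 0.0059 and -0.55 in the SF/SCL libraries. The median log2 fold change of that list was 1.09, and a link to the muscle genes was not tested. For immune markers 10 of 12 were higher in LF/LCL, with sums of 2765 to 3654 normalized reads in LF/LCL against 1588 to 3036 in SF/SCL. Of the 12, 5 were higher with an unadjusted p under 0.05 (limma), against 5.64% of all genes, and 0 were lower. For proliferation markers 9 of 10 were higher, with 642 to 1215 normalized reads in LF/LCL against 492 to 615 in SF/SCL. Of these 10, 4 were higher with an unadjusted p under 0.05, against the same 5.64%, and 0 were lower. For mesothelial markers 2 of 5 were higher, with 8622 to 8813 normalized reads in LF/LCL against 7521 to 10686 in SF/SCL. Most of the mesothelial sum was WT1, with 6793 and 6820 normalized reads in LF/LCL against 7240, 6589 and 7104.5 in SF/SCL. Red blood cell markers summed to 90.0 to 528 normalized reads in LF/LCL against 32.2 to 257 in SF/SCL, with 3 of 3 tested entries higher in LF/LCL and ALAS2 at 0 in all libraries.

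**Figure D5:**
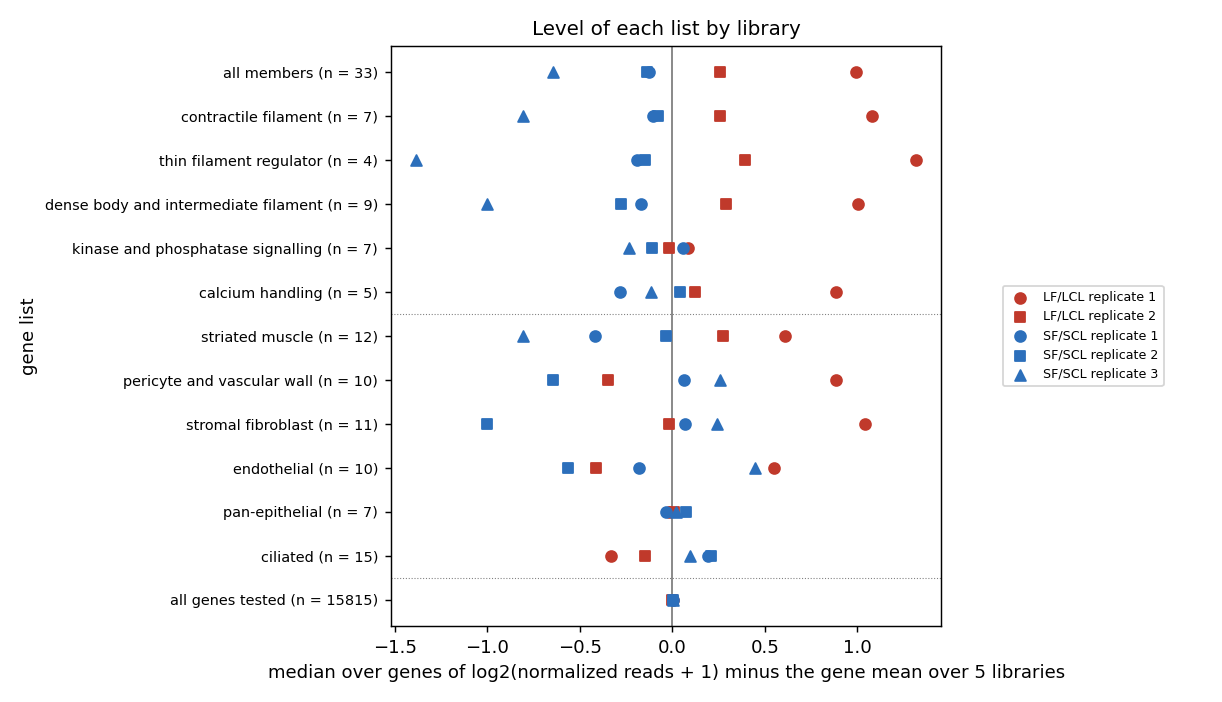
Level of the smooth muscle genes, of their roles with more than 1 gene and of marker lists of other cells in each library, as the median over genes of log2(normalized reads + 1) minus the gene mean over the 5 libraries. The proliferation list and some other lists are not drawn. Red marks LF/LCL and blue SF/SCL, and the shape marks the replicate. SF/SCL replicate 3 is the lowest library for all members, at -0.64, and the second highest for the stromal fibroblast list, at 0.24.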

How the data were processed

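The genes, lists and tests were chosen with earlier results of these data known. PolyA libraries were sequenced as read pairs. The authors aligned reads with TopHat2 2.0.8 and Bowtie2 2.1.0 against a repeat-masked UMD bovine genome, then counted uniquely mapped reads per Ensembl gene with HTSeq; the use of strand was not stated. The deposited signal is the read count divided by 1 DESeq 1.12.1 size factor per library. Dividing by the value of 1 read gave whole reads for 100% of nonzero values (tolerance 0.0006). Near-identical, overlapping and antisense genes are uncertain. No transcript lengths or sequences were used, so levels are not compared between genes.

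The main test was limma 3.58.1 (eBayes, trend and robust) on log2(value + 1) for 15815 genes with a mean over 5. It was two-sided, with Benjamini-Hochberg adjustment over all these genes and a threshold of 0.05. Simulated data were run only with larger changes than those of the members, so they do not show how the test performs here. Adding 1 shrinks the fold change of low genes, but that of JPH2 was higher on the log2(value + 1) scale than with DESeq2 or edgeR. edgeR 4.0.16 and DESeq2 1.42.0 were run on the recovered reads. Alternatives were TMM scaling, pseudocounts of 0.5 and 5, no filter, a mean above the SD, and leaving out each library. Members were named by symbol. Companion genes named were ACTA2, KCNMB1, CACNA1C, the 6 others with the smallest p and a mean of at least 50, and non-muscle myosins; ACTG2 was not analysed here and ACTA1 and MYH7 were added after their values were seen.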

Additional observations from a re-analysis of the deposited data

How the results depend on the processing

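No paired analysis was possible because the libraries carry animal numbers that differ between groups. Both entries for MYL9 were tried after seeing the data. DESeq2 called 462 genes and 8 members at an adjusted p under 0.05, where limma and edgeR called 0 and 0, and the cause was not tested. Across the fits that each left out 1 library, members with an unadjusted p under 0.05 numbered from 4 to 21 and the median log2 fold change of the members ran from 0.62 to 1.34. The remaining alternatives gave 17 to 21 members and a median of 0.89 to 0.91, or 0.95 without the other MYL9 entry. Over all genes, 1784 (mean above the SD) to 2014 (DESeq2) had an unadjusted p under 0.05 in these alternatives, against 1819 in the main test. The number of members with LF/LCL above SF/SCL without overlap was 22 also after rescaling and with no filter. Across the fits without 1 library the MYL9 to MYL6 log2 difference ran from -0.018 to 0.70, and it was -0.49 with the other MYL9 entry. PLN to ATP2A2 ran from 0.47 to 1.23 and RYR2 to ITPR1 from 1.36 to 2.02. The PPP1R12B to PPP1R12A difference ran from -0.94 to 0.55 and MYLK to MYH11 from -0.26 to 0.37. The sign of 5 members changed in leave-one-out fits, where PPP1R12B ran from -0.30 to 0.69, ROCK1 from -0.13 to 0.0063, ROCK2 from -0.095 to 0.083, ATP2A2 from -0.068 to 0.031 and ITPR1 from -0.50 to 0.34. Few reads limit PRKG1, RYR2, JPH2 and PPP1R12B.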
